A study of Mus musculus with 9 samples.

Results

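The genes described here are 8 thymocyte genes, Cd3d, Cd8b1, Cd2, Lck, Tcf7, Bcl11b, Arpp21 and Ptprc, measured in RNA of sorted thymic tuft cells. They were chosen by gene symbol, and all 8 were found among the 13223 genes of the deposited table. The study compared 4 libraries from young female wild-type (WT) mice that had received a sublethal irradiation of 425 rad 3 days before the thymus was taken with 5 libraries from untreated WT mice of matched age. Thymi of both groups were dissociated with Liberase TH plus DNase before the sort, and polyadenylated RNA was read at its 3' ends by bulk MARS-seq. How the sort was gated, how many cells made a pool and which mice stood behind each library are not stated in the labels, so the p-values below measure a spread between libraries that may in part be technical.

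Thymocytes are the developing T cells that fill the thymus, and they outnumber its epithelial cells by far. A thymocyte commits to the T lineage under transcription factors such as TCF-1 (from Tcf7) and BCL11B, rearranges its antigen receptor genes, and then carries CD4 and CD8 together in the cortex before it is selected. The receptor signals through the CD3 chains, which the kinase LCK phosphorylates after the phosphatase CD45 (from Ptprc) has removed an inhibitory phosphate from LCK. Tuft cells are chemosensory epithelial cells that are not known to use an antigen receptor, although CD45 has been described on a subset of intestinal tuft cells in mice.

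All 8 genes had a lower pooled level in irradiated than in untreated libraries, and 6 of the 8 were lower in each of the 4 irradiated libraries than in any of the 5 untreated ones, a pattern that 2.34% of all listed genes shared. Together the genes gave 91 counts in the irradiated and 1468 counts in the untreated libraries, which is a level 12.6 times lower per count sequenced (exact 95% interval 10.2 to 15.7, counting error only). Untreated replicate 1 alone held 998 of these counts, and without it the level was 5.39 times lower in irradiated libraries (interval 4.30 to 6.83). None of the 8 passed the quasi-likelihood test of edgeR after adjustment over all genes. With a low-count filter, which kept 4 of the 8, 0.123% of tested genes were called lower, and without it 0.0756%. Without the filter, 7 of the 8 had an unadjusted edgeR p under 0.05, as did 5.85% of all genes in the lower direction. The DESeq2 Wald test called 5 of the 8 lower (0.76% of its tested genes) and gave no p for Lck. In bulk RNA, fewer cells of a type and less RNA per cell cannot be told apart.

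Library totals ran from 509157 to 939948 counts in the irradiated group and from 686082 to 978442 in the untreated group, so 1 count was worth 1.04 to 2.10 CPM (counts scaled to library size with the TMM factors of edgeR) and a count of 0 allowed a level of up to 3.11 to 6.31 CPM (3 counts). These limits, like the exact intervals, cover counting error only. The label of tuft cells was borne out by tuft identity genes, of which 19 of the 20 in the list were found, with a summed level of 21820 to 28790 CPM in irradiated and 13360 to 26820 CPM in untreated libraries. Avil, an actin-binding protein of tuft cells, lay at 2353 to 3083 CPM in irradiated and 1442 to 3373 CPM in untreated libraries. Krt18 of the same list tended higher in irradiated libraries, at 4477 to 6153 CPM against 2552 to 4678 CPM in untreated ones (edgeR adjusted p = 0.339). Of the 19 genes edgeR called 0, and DESeq2 called 1 higher, against 184 of its 13153 tested genes. Irradiated replicate 4 stood apart from all other libraries on the first principal component of log2 CPM (85.8, against -32.7 to 4.56), which held 36.7% of the variance.

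The promoters of the receptor chain gene Cd3d and the kinase gene Lck are shown because both genes had groups that did not overlap and because TCF-1, itself encoded by a member, binds sites with the core CTTTGA. Each stretch runs from 250 bases before to 50 bases after a RefSeq transcript start (GRCm38.p6, the assembly behind mm10), and capitals mark matches on either strand to the cores of TCF/LEF (CTTTGA), RUNX (TGTGGT), ETS (GGAAGT) and E-box (CAGCTG) motifs. The Cd3d stretch lies on the plus strand at chr9:44981536-44981835, and the Lck stretches lie on the minus strand at chr4:129573592-129573891 (the upstream start) and chr4:129558323-129558622 (the downstream start).
Cd3d: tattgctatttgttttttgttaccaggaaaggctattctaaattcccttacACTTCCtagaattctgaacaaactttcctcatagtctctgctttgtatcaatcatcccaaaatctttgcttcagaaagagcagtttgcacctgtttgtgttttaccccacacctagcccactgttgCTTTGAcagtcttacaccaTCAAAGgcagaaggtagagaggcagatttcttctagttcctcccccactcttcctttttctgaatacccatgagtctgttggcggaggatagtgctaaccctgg
Lck, upstream start: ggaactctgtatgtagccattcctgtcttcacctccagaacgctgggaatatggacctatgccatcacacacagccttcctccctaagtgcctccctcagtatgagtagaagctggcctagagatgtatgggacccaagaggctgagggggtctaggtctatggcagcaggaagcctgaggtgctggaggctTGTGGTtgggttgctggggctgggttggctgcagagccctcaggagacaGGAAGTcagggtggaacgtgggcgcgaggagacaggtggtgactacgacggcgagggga
Lck, downstream start: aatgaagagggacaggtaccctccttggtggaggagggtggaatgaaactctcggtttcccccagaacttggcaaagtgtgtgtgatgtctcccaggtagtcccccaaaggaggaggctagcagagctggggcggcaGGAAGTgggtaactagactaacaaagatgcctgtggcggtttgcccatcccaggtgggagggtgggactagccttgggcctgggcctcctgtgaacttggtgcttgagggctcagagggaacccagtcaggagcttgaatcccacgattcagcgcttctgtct

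The Cd3d stretch held 2 matches to the TCF/LEF core and 1 to the ETS core. The Lck stretches held no TCF/LEF match, with 1 RUNX and 1 ETS match at the upstream start and 1 ETS match at the downstream start. RefSeq promoters were matched for 6 members, Cd3d, Lck, Tcf7, Bcl11b, Arpp21 and Ptprc, with 17 stretches in all, some of which overlap. Among these 6, the ETS core was found for 5, the TCF/LEF core for 4, the E-box for 3 and the RUNX core for 2. Over all 32851 promoters of the same length, 23.8% held the ETS core, 16.0% the TCF/LEF core, 16.3% the E-box and 16.8% the RUNX core, and a gene with several stretches has more chances of a match. A match describes letters only, and the libraries measured 3' ends, not promoters.

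Receptor and coreceptor genes were first in order of role. Cd3d encodes the delta chain of CD3, the signalling part of the T cell receptor, and is found on chromosome 9, plus strand (44981786 to 44987339, mm10). It gave 0, 6, 3 and 0 counts in irradiated replicates 1 to 4, against 123, 37, 13, 7 and 8 counts in untreated replicates 1 to 5. The groups did not overlap in CPM, with 6.22 as the highest irradiated and 9.21 as the lowest untreated level, and untreated replicate 1 stood at 129 CPM. The pooled level was 16.3 times lower in irradiated libraries (exact 95% interval 8.39 to 36.2), and 7.54 times lower without untreated replicate 1 (3.74 to 17.2).

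Cd8b1 encodes the beta chain of the coreceptor CD8, which binds class I molecules of the major histocompatibility complex, and sits on chromosome 6 (plus strand, 71322788 to 71337494). It gave 0, 2, 6 and 2 counts in irradiated replicates 1 to 4, against 160, 23, 22, 6 and 9 counts in untreated replicates 1 to 5. The highest irradiated library lay at 6.72 CPM and the lowest untreated library at 7.89 CPM, a gap that rests on 6 counts in each of these 2 libraries. The pooled level was 17.1 times lower in irradiated libraries (9.15 to 36.3), and 6.26 times lower without untreated replicate 1 (3.18 to 13.7). Cd3d and Cd8b1 fell short of the low-count filter, and without that filter their log2 fold changes were -3.83 ± 1.12 and -3.84 ± 1.17 (SE; edgeR adjusted p = 0.228 and 0.255).

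Cd2, an adhesion molecule of T cells and natural killer cells, sits on chromosome 3 (minus strand, 101275899 to 101287939). It gave 2, 0, 2 and 2 counts in irradiated replicates 1 to 4, against 55, 11, 17, 10 and 4 counts in untreated replicates 1 to 5. Every irradiated library lay below every untreated one, by a narrow margin between irradiated replicate 4 (4.21 CPM) and untreated replicate 5 (5.58 CPM). Of the 8 genes it came nearest to passing edgeR, with a log2 fold change of -3.40 ± 0.81 (SE) and an adjusted p of 0.0669. Without untreated replicate 5 it passed (edgeR adjusted p = 0.0306), as 10 of 8843 tested genes did in the lower direction. It did not pass without any 1 irradiated library (edgeR adjusted p = 0.131 to 0.195). Without any other untreated replicate it fell below the low-count filter.

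The signalling enzymes were Lck and Ptprc. Lck encodes the kinase that starts signalling at the T cell receptor, and sits on chromosome 4 (minus strand, 129548344 to 129573641), where an annotated microRNA shares its exons. It gave 4, 3, 5 and 4 counts in irradiated replicates 1 to 4, against 204, 24, 23, 20 and 14 counts in untreated replicates 1 to 5. Its irradiated levels lay between 3.11 and 8.42 CPM, and the untreated levels between 19.5 and 213.6 CPM, so the groups were well apart. Untreated replicate 1 was 7.81 times the median of the other untreated libraries. The log2 fold change was -3.54 ± 0.95 (SE; edgeR adjusted p = 0.159) over all libraries and -2.28 ± 0.39 (SE; edgeR adjusted p = 0.0109) without untreated replicate 1, a smaller change with a smaller error that passed the test, as 0.139% of the genes tested without that library did in the lower direction.

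Ptprc encodes CD45, a phosphatase on the surface of nearly all blood cells other than red cells, and sits on chromosome 1 (minus strand, 138062861 to 138175708). It gave 4, 5, 13 and 3 counts in irradiated replicates 1 to 4, against 141, 24, 22, 13 and 25 counts in untreated replicates 1 to 5. The groups did not overlap, with irradiated replicate 3 highest of its group at 14.6 CPM and untreated replicate 4 lowest of its group at 17.1 CPM. Its pooled level was 7.01 times lower in irradiated libraries (4.63 to 11.1), and 3.51 times lower without untreated replicate 1 (2.22 to 5.72). The log2 fold change was -2.66 ± 0.71 (SE; edgeR adjusted p = 0.142).

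The transcription factors were Tcf7 and Bcl11b. Tcf7 sits on chromosome 11 (minus strand, 52252371 to 52283014) and encodes TCF-1, which acts early in T lineage specification downstream of Notch. It gave 5, 6, 2 and 3 counts in irradiated replicates 1 to 4, against 267, 41, 25, 33 and 12 counts in untreated replicates 1 to 5. Irradiated libraries lay between 2.24 and 7.80 CPM and untreated libraries between 16.7 and 279.5 CPM. The pooled level was 18.4 times lower in irradiated libraries (11.2 to 32.5), and 7.24 times lower without untreated replicate 1 (4.27 to 13.1). The log2 fold change was -3.97 ± 1.04 (SE; edgeR adjusted p = 0.159), and -2.76 ± 0.48 without untreated replicate 1 (SE; edgeR adjusted p = 0.0128).

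Bcl11b encodes a zinc finger factor needed for commitment to the T lineage and sits on chromosome 12 (minus strand, 107910403 to 108003602). It was close to the limit of detection, with 1, 0, 0 and 0 counts in irradiated replicates 1 to 4, against 8, 1, 0, 1 and 0 counts in untreated replicates 1 to 5. Detection of Bcl11b was thus shared by both groups, and untreated replicate 1 held 80% of its untreated counts. The pooled level was 7.79 times lower in irradiated libraries (1.11 to 338), and 2.09 times lower without untreated replicate 1, where the interval of 0.109 to 123 included no difference. These intervals leave out the spread between libraries. Over all libraries and without a low-count filter, the log2 fold change was -2.28 ± 1.53 (SE; edgeR adjusted p = 0.632). A difference in Bcl11b was therefore not detected at this depth, with or without untreated replicate 1.

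Arpp21, a cAMP-regulated phosphoprotein that binds RNA, is a gene of immature thymocytes and of neurons on chromosome 9 (minus strand, 112065091 to 112235938). It gave 1, 0, 4 and 3 counts in irradiated replicates 1 to 4, against 40, 16, 2, 3 and 4 counts in untreated replicates 1 to 5. Only untreated replicates 1 and 2, at 41.9 and 23.7 CPM, stood above the irradiated range of 0 to 6.31 CPM, and the other untreated libraries lay within it. The log2 fold change without a low-count filter was -2.39 ± 0.96 (SE; edgeR adjusted p = 0.375). Exons of Arpp21 overlap those of a gene on the opposite strand, and with no strand setting given its counts are uncertain.

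**Figure D1:**
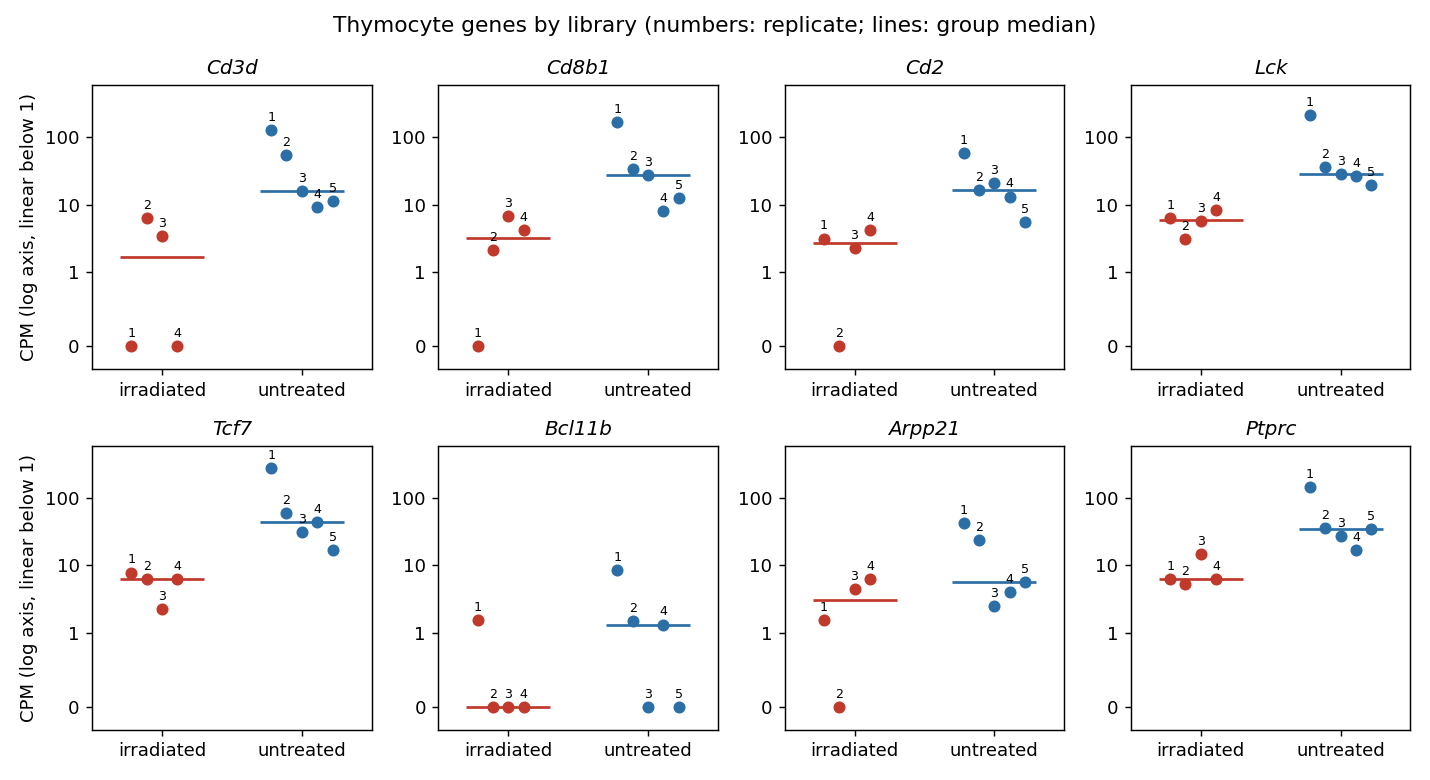
Level of each of the 8 genes in CPM (vertical axis, logarithmic above 1 and linear below) in the 4 irradiated and 5 untreated libraries, with the replicate number above each point and a line at the group median. Untreated replicate 1 is the highest library in all 8 panels, and the groups overlap only for Bcl11b and Arpp21.

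Per group, Tcf7 averaged 5.64 ± 2.38 CPM in irradiated and 86.2 ± 109 CPM in untreated libraries (SD, n = 4 and 5). Lck averaged 5.84 ± 2.19 CPM in irradiated and 64.7 ± 83.4 CPM in untreated libraries, and Ptprc averaged 8.07 ± 4.35 CPM in irradiated and 52.5 ± 53.7 CPM in untreated libraries. Cd8b1 averaged 3.25 ± 2.88 CPM in irradiated and 49.8 ± 66.6 CPM in untreated libraries, Cd3d 2.40 ± 3.00 CPM in irradiated and 44.0 ± 50.9 CPM in untreated libraries, and Cd2 2.39 ± 1.79 CPM in irradiated and 22.7 ± 20.3 CPM in untreated libraries. For 7 of the 8 genes the untreated SD was larger than the untreated mean, with Cd2 as the exception, so the spread among untreated libraries was wide against the difference between the groups.

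**Figure D2:**
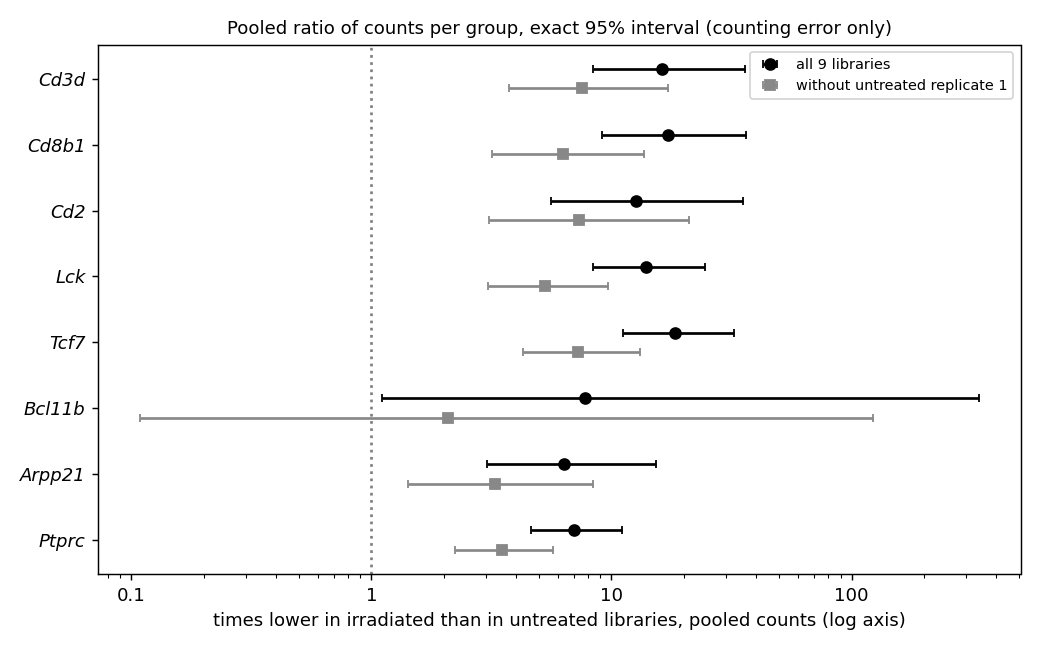
Times by which the pooled level of each gene was lower in irradiated than in untreated libraries (horizontal axis, logarithmic), with exact 95% intervals for counting error, over all 9 libraries (black circles) and without untreated replicate 1 (grey squares). All 8 black intervals lie above 1, and without untreated replicate 1 the interval of Bcl11b reaches below 1.

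The 8 genes were described together with the fold changes of all genes. Without a low-count filter the median log2 fold change of the 8 genes was -3.43, and that of all 13223 genes was -0.06. The low-count filter kept Cd2, Lck, Tcf7 and Ptprc, all of which passed it through their untreated libraries, and removed Cd3d, Cd8b1, Bcl11b and Arpp21. With the filter edgeR called 0 of the 4 kept genes lower and 0 higher, against 11 lower and 109 higher of 8934 tested genes (0.123% and 1.22%). Without it edgeR called 0 of the 8, against 10 lower genes of 13223 (0.0756%). The pooled level was at least 4 times lower in irradiated libraries for 8 of the 8 genes and for 5.35% of all listed genes, and without untreated replicate 1 for 5 of the 8 and 4.56%, a limit chosen after the values were seen.

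Whether a gene was called lower depended on the tool. The DESeq2 Wald test called Tcf7 (adjusted p = 8.51e-05), Cd8b1 (0.00304), Cd3d (0.00332), Ptprc (0.00597) and Cd2 (0.0103), did not call Arpp21 (adjusted p = 0.299) or Bcl11b (0.780), and gave no p for Lck. Of the 8 genes, 6 passed in the authors' deposited table, against 0.718% of all listed genes that passed and were lower in irradiated libraries. These were Cd3d, Cd8b1, Cd2, Lck, Tcf7 and Ptprc, and the authors' deposited table gives Lck an adjusted p of 0.000699 and Tcf7 one of 8.59e-05. The value for Lck has no counterpart in the DESeq2 fit made here. For Tcf7 the log2 fold change of irradiated over untreated was -3.94 by DESeq2, -3.97 by edgeR and -2.91 by limma-voom. In the authors' deposited table, where untreated is on top, the log2 fold change of Tcf7 was 3.94. limma-voom with quality weights called 1 of the 4 kept genes, Cd2 (adjusted p = 0.0391, 0.269% of tested genes called lower).

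Leaving out untreated replicate 1 made every fitted change smaller, and 2 genes then passed edgeR. Without a low-count filter and without that library, edgeR called Tcf7 (log2 fold change -2.74, adjusted p = 0.0111) and Lck (-2.26, 0.0131), against 0.0984% of all genes called lower. Ptprc was then at -1.75 (edgeR adjusted p = 0.0841), Cd8b1 at -2.54 (0.133), Cd2 at -2.63 (0.147), Cd3d at -2.88 (0.172), Arpp21 at -1.55 (0.640) and Bcl11b at -0.71 (0.926). Without that library and irradiated replicate 4 together, edgeR with the filter called 2 of the 4 genes it kept lower (0.177% of tested genes), again Lck and Tcf7. Over the 9 fits that left out 1 library each in this way, all 8 genes had a fold change below 0 in every fit. The range ran from -4.19 to -2.74 for Tcf7, from -3.74 to -2.26 for Lck and from -3.95 to -0.71 for Bcl11b.

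**Figure D3:**
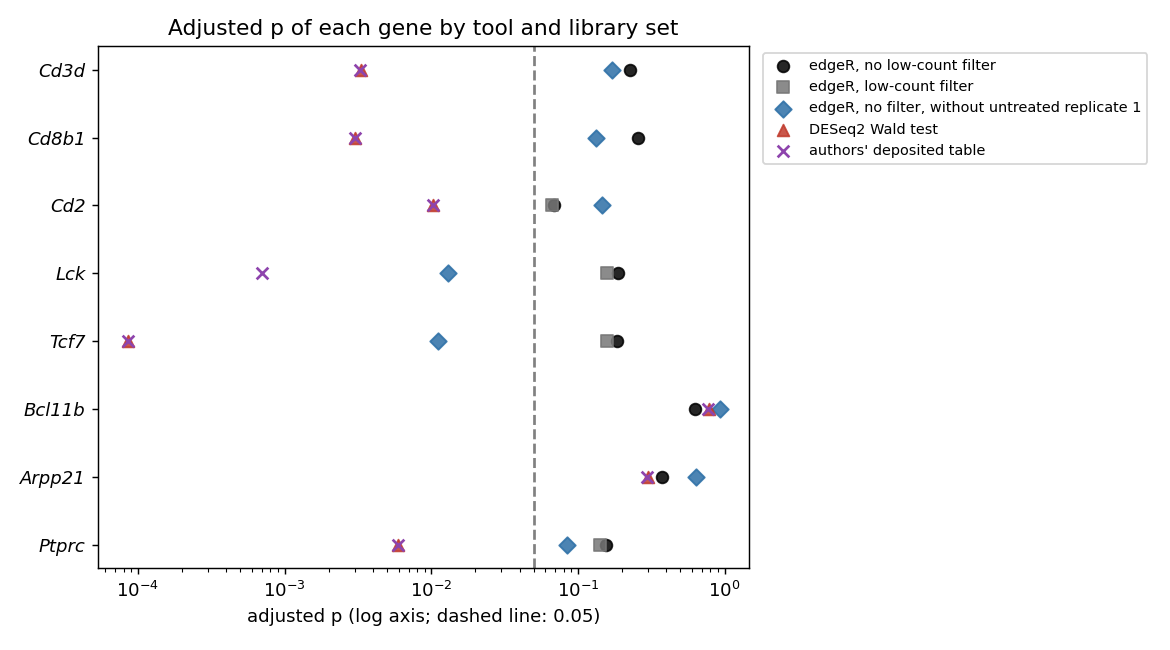
Adjusted p (horizontal axis, logarithmic, dashed line at 0.05) of each gene by edgeR without and with the low-count filter, by edgeR without the filter and without untreated replicate 1, by the DESeq2 Wald test and in the authors' deposited table. The edgeR points over all libraries lie right of the line for all 8 genes, and the points of the authors' deposited table lie left of it for 6.

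Summed over the 8 genes, the level was 26.5, 22.8, 39.2 and 35.8 CPM in irradiated replicates 1 to 4, against 1045, 262, 153, 122 and 106 CPM in untreated replicates 1 to 5. The highest irradiated library thus lay below the lowest untreated library. The irradiated libraries were close to each other, with a mean of 31.1 ± 7.68 CPM (SD, n = 4), while the untreated libraries spanned a wide range, with a mean of 338 ± 400 CPM (SD, n = 5) and a median of 153 CPM. Without untreated replicate 1 the untreated mean was 161 ± 70.3 CPM (SD, n = 4). Untreated replicate 1 was the highest of the 9 libraries for 8 of the 8 genes, which was the case for 16.4% of all listed genes. Between 5 and 7 of the 8 genes were detected in irradiated libraries and between 7 and 8 in untreated libraries.

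The make-up of the summed counts was compared as the share of each gene. Tcf7 took 17.6% of the 91 irradiated and 25.7% of the 1468 untreated counts, Lck 17.6% of the irradiated and 19.4% of the untreated counts, Cd8b1 10.99% of the irradiated and 14.99% of the untreated counts, and Cd3d 9.89% of the irradiated and 12.8% of the untreated counts. Ptprc took 27.5% of the irradiated counts (exact 95% interval 18.6 to 37.8) and 15.3% of the untreated counts (13.5 to 17.3), and irradiated replicate 3 held 13 of its 25 irradiated counts. By library the Ptprc share ran from 17.6% to 37.1% in irradiated and from 13.6% to 32.9% in untreated libraries, so the groups overlapped, and irradiated replicate 3 and untreated replicate 5 held the highest shares of their groups. In untreated replicate 1, where the 8 genes were most abundant, the shares were 26.8% for Tcf7, 20.4% for Lck, 16.0% for Cd8b1, 14.1% for Ptprc and 12.3% for Cd3d.

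**Figure D4:**
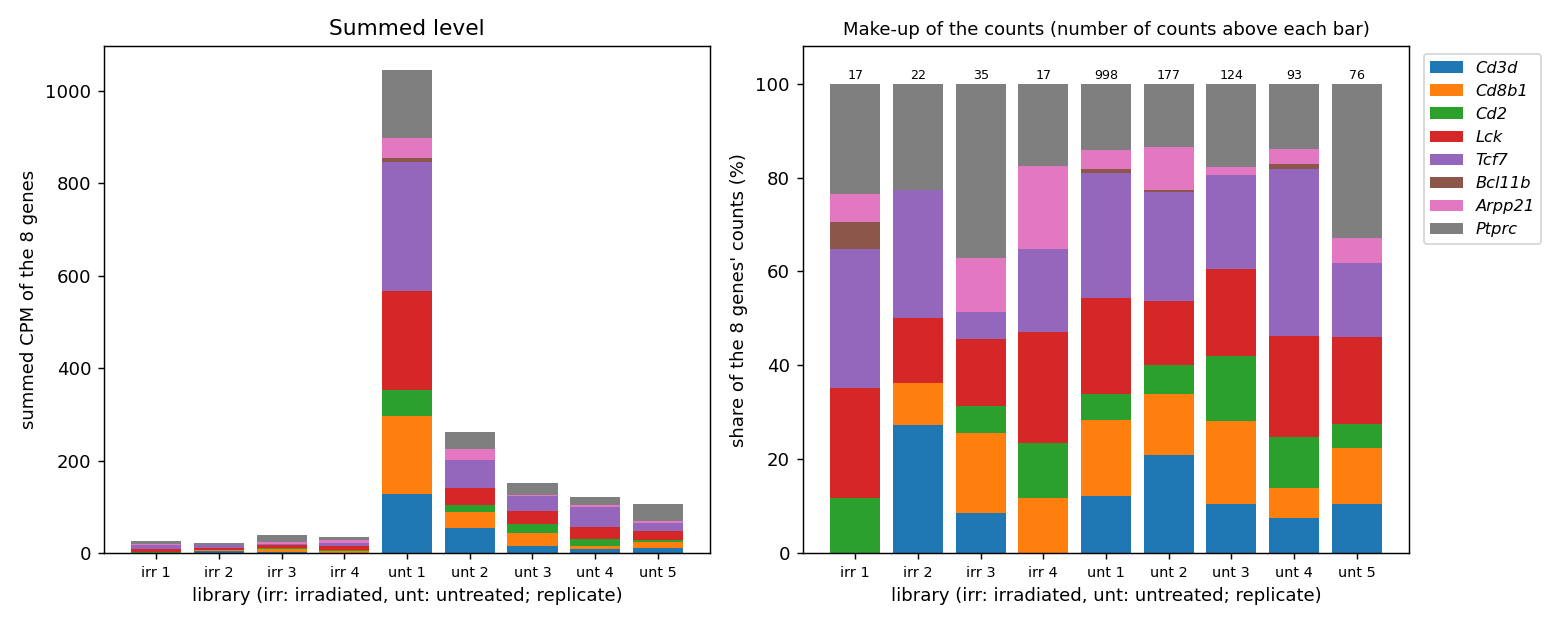
Left, summed CPM of the 8 genes in each library, stacked by gene. Right, the share of each gene in the summed counts of the library in percent, with the number of counts above each bar. Untreated replicate 1 reaches 1045 CPM and the irradiated libraries lie between 22.8 and 39.2 CPM, whose shares rest on 17 to 35 counts.

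A further 47 genes of T cells were followed in 5 lists, of which 38 were found in the table and 13 passed the low-count filter. Of these 38, 36 had a fold change below 0 without the filter, with a median log2 fold change of -2.37, and 30 were highest in untreated replicate 1. edgeR called 0 of the 13 lower and 0 higher, and DESeq2 called 5 of the 38 lower (0.76% of its tested genes). Without the filter 21 of the 38 had an unadjusted edgeR p under 0.05 and lay lower, against 5.85% of all genes. Skap1, Rag1, Dntt and Gata3 were among those that DESeq2 called lower. For 7 of the 38 genes, these 4, Il7r and Lat among them, all irradiated libraries lay below all untreated ones, a pattern shared by 2.34% of all listed genes.

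The 2 recombination genes found summed to 0 to 7.84 CPM in irradiated and 17.3 to 227 CPM in untreated libraries. Dntt, the enzyme that adds bases at receptor gene joints, was at 6.24, 0, 5.60 and 0 CPM in irradiated replicates 1 to 4, against 181, 29.6, 12.3, 32.9 and 18.1 CPM in untreated replicates 1 to 5. Rag1, a subunit of the recombinase, was at 1.56, 0, 2.24 and 0 CPM in irradiated replicates 1 to 4, against 46.1, 11.9, 4.93, 7.89 and 5.58 CPM in untreated replicates 1 to 5. All irradiated libraries lay below all untreated ones for both genes, which immature lymphocytes use, yet neither passed edgeR (adjusted p = 0.192 for Dntt, and 0.0988 for Rag1 without the filter).

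Of the 4 receptor complex genes found, 4 had a fold change below 0. Cd3e, the epsilon chain of CD3, gave 1 count in the irradiated and 47 in the untreated libraries, and Cd3g, its gamma chain, 11 counts in the irradiated and 58 in the untreated libraries. Ptcra, the surrogate alpha chain of immature thymocytes, gave 0 counts in the irradiated and 22 in the untreated libraries. Cd247, the zeta chain, ranged from 3.36 to 21.9 CPM in irradiated and from 13.6 to 81.7 CPM in untreated libraries, which overlapped. None of the 4 was called by edgeR or DESeq2, while 3 had an unadjusted edgeR p under 0.05 without the filter, against 5.85% of all genes.

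Among the 8 signalling genes found, Lat, the adaptor that LCK signalling reaches through ZAP70, was at 1.56, 1.04, 2.24 and 14.7 CPM in irradiated replicates 1 to 4, against 233.5, 40.0, 21.0, 35.5 and 25.1 CPM in untreated replicates 1 to 5 (edgeR adjusted p = 0.174). Skap1, an adaptor of T cell adhesion, gave 2 counts in the irradiated and 118 in the untreated libraries (edgeR without filter, adjusted p = 0.0974). Ptpn22, a phosphatase of lymphocytes, ranged from 7.80 to 20.7 CPM in irradiated and from 19.7 to 48.9 CPM in untreated libraries. Themis, a thymocyte selection gene, lay at 10.1 to 12.5 CPM in irradiated and 8.36 to 31.1 CPM in untreated libraries, so its groups overlapped widely.

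In the list of coreceptors and surface molecules, 13 of 14 genes were found and 13 had a fold change below 0. Cd4, the coreceptor for class II molecules, gave 16 counts in the irradiated and 105 in the untreated libraries, and Cd69, an activation marker, gave 10 counts in the irradiated and 85 in the untreated libraries. Thy1, which thymocytes share with fibroblasts, was at 43.7 to 92.6 CPM in irradiated and 41.8 to 424 CPM in untreated libraries, and Ly6d, which epithelial cells also express, at 130 to 276 CPM in irradiated and 78.9 to 810.4 CPM in untreated libraries. Both overlapped between the groups (edgeR adjusted p = 0.652 and 0.755). Of the 11 transcription factors of thymocytes, 9 had a fold change below 0 with a median of -0.37, and the most abundant are not particular to T cells. Id3, an inhibitor of E proteins, lay at 415 to 1374 CPM in irradiated and 308 to 605 CPM in untreated libraries, and Ets1 at 21.3 to 94.7 CPM in irradiated and 19.5 to 98.4 CPM in untreated libraries.

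Markers of other cell types were listed beside these genes. Of 18 macrophage and dendritic cell genes found, 14 passed the low-count filter, and edgeR called 2 of these lower (Ccl22 and Ccr7), against 0.123% of tested genes. Of the 18, 14 were highest in untreated replicate 1. The summed level was 1027 to 1779 CPM in irradiated and 1418 to 6414 CPM in untreated libraries, with untreated replicates 1 and 2 at 5378 and 6414 CPM. Of 18 proliferation genes found, 10 passed the filter, and edgeR called 2 of these lower (Cdca8 and Kif22). DESeq2 called 10 of the 18 lower, against 0.76% of its tested genes. For 9 of the 18 the groups did not overlap (2.34% of all listed genes), and 17 were highest in untreated replicate 1. The summed level was 276 to 591 CPM in irradiated and 399 to 1529 CPM in untreated libraries. The 3 natural killer and innate lymphoid genes found summed to 0 to 14.0 CPM in irradiated and 2.79 to 117 CPM in untreated libraries, with 117 CPM in untreated replicate 1. Of 8 B cell genes found, 3 gave no count in any irradiated library, and the list summed to 147 to 231 CPM in irradiated and 151 to 318 CPM in untreated libraries, with 318 CPM in untreated replicate 1. General leukocyte genes, some of which tuft cells also express, summed to 2167 to 2702 CPM in irradiated and 2508 to 4342 CPM in untreated libraries. Of the 13 general leukocyte genes found, 11 had a fold change below 0 without the filter, with a median log2 fold change of -0.86. In untreated replicate 1, 9 of the 13 were highest, and DESeq2 called Cd52 and Ptprcap lower (0.76% of its tested genes). The abundant Ptpn6, a phosphatase, differed little, at 837.5 to 1150 CPM in irradiated and 665 to 1368 CPM in untreated libraries. The 5 neutrophil genes found summed to 302 to 2536 CPM in irradiated and 112 to 754 CPM in untreated libraries, with 2536 CPM in irradiated replicate 1. Cortical thymic epithelial genes summed to 241 to 534.5 CPM in irradiated and 479.5 to 1227 CPM in untreated libraries, and medullary ones to 545 to 717 CPM in irradiated and 416 to 1973 CPM in untreated libraries, with none of either list called by edgeR. Cxcl12, a chemokine of the cortical list, was at 105 to 316 CPM in irradiated and 210.5 to 578 CPM in untreated libraries, which overlapped. Ccl25, another, was at 6.31 to 48.7 CPM in irradiated and 51.8 to 483 CPM in untreated libraries, which did not overlap (edgeR adjusted p = 0.314). Of the 8 cortical genes found, 1 lay lower without overlap, against 2.34% of all listed genes. The 10 fibroblast and pericyte genes summed to 2667 to 4247 CPM in irradiated and 618 to 2336 CPM in untreated libraries. The part of these cell types in the levels of the 8 genes was not tested.

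**Figure D5:**
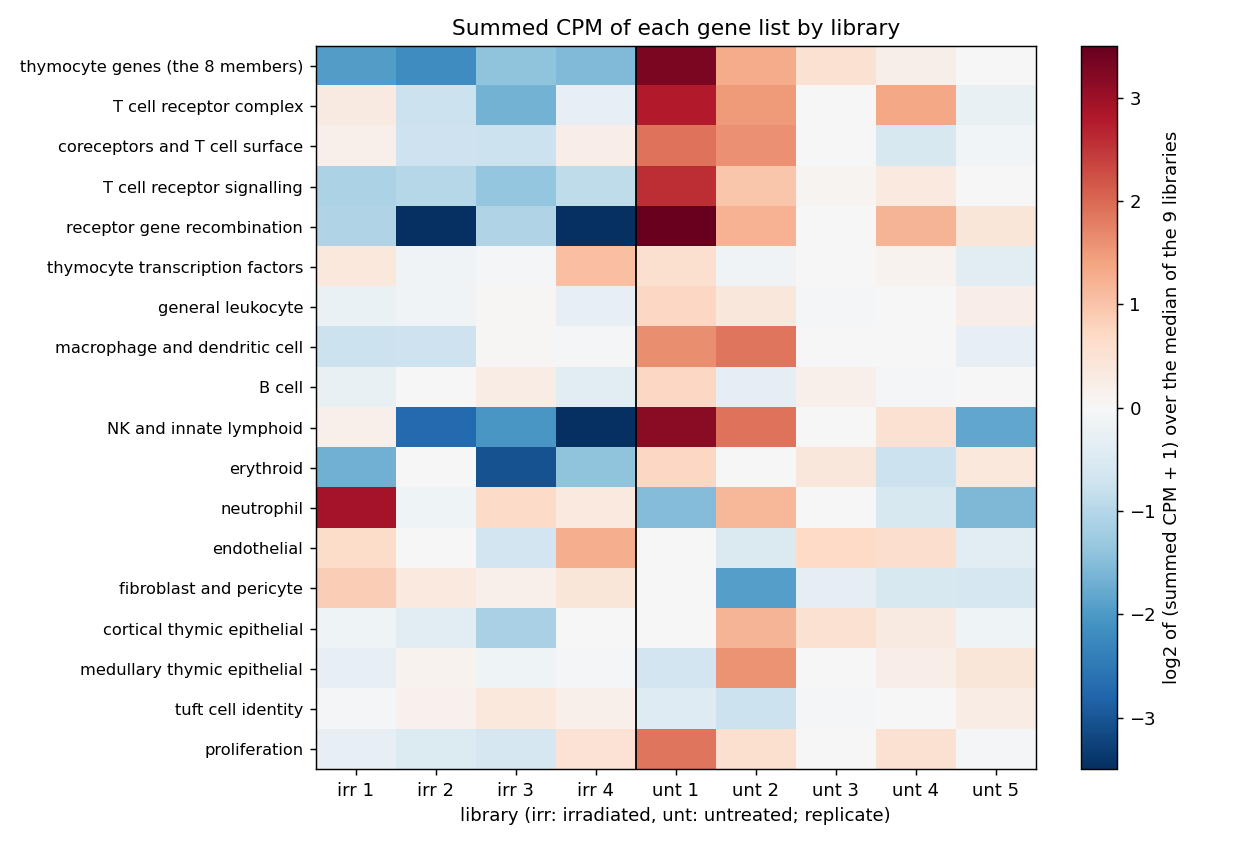
Summed CPM of the 8 thymocyte genes and of 17 gene lists (rows) in each library (columns, irradiated left of the line, untreated right of it), as log2 of the summed CPM plus 1 over the median of the 9 libraries. The top row is at its darkest red in untreated replicate 1, at 1045 CPM. Also red in that library are the lists of T cell receptor, coreceptor, signalling, recombination, natural killer and proliferation genes. The list of macrophage and dendritic cell genes is red there too, and in untreated replicate 2. The row of tuft identity genes stays pale on this scale, though its sum was lowest in untreated replicates 1 and 2 (16360 and 13360 CPM).

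The genes outside the set whose log2 CPM followed the summed level of the 8 genes most closely over the 9 libraries were Selplg, Arhgap45, Lsp1, Srp19, Gpr132, Samsn1, Dock10, Ccr7, Hibadh and Lat. Pearson's r ran from 0.935 to 0.977 and Spearman's rho from 0.883 to 1, and without untreated replicate 1 Pearson's r was 0.879 to 0.973. These values describe likeness over 9 libraries that differ by treatment, and they carry no test. Selplg, the ligand of P-selectin on leukocytes, was at 6.24, 6.22, 11.2 and 6.31 CPM in irradiated replicates 1 to 4, against 198, 44.4, 28.4, 26.3 and 12.6 CPM in untreated replicates 1 to 5. Ccr7, a chemokine receptor of mature dendritic cells and T cells, was at 0, 0, 4.48 and 2.10 CPM in irradiated replicates 1 to 4, against 126, 56.3, 34.5, 28.9 and 25.1 CPM in untreated replicates 1 to 5. Of the 10 genes, Ccr7 and Samsn1 were called lower by edgeR (adjusted p = 0.0110 and 0.0127), as were 0.123% of tested genes. The 10 were picked for following a sum that was lower in every irradiated library. A lower level in irradiated libraries was thus favoured by the choice itself.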

How the data were processed

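Bulk MARS-seq gave 9 libraries. The build mm10 and, with no roles, the tools DESeq2, HTSeq, STAR 2.5.2b, cutadapt and bcl2fastq come from the submitters' processing notes. The deposited raw columns hold counts per gene, per the file headers; no label says whether molecular identifiers were collapsed or which strand was counted. The deposited normalized columns and their mean hold a signal, the counts divided by a size factor per library, and were not used. The deposited regularized columns hold log2 values and were not used. The authors' comparison gives log2 fold changes, with untreated on top, a p-value and adjusted p-value, and the deposited flags tell which genes passed. No gene of the table peaked below 6 counts.

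Counts were tested in R 4.3.3 with edgeR 4.0.16 (filterByExpr with a minimum count of 10, TMM, robust quasi-likelihood F test, p-values adjusted by Benjamini-Hochberg over every gene tested, threshold 0.05). The fold changes are irradiated over untreated, and the SE is the size of the fold change over the square root of F. Members below the filter were taken from the fit without it. Pooled ratios divide counts summed per group by summed library totals, with exact conditional binomial 95% intervals. Alternatives were DESeq2 1.42.0, limma-voom (limma 3.58.1), other scalings and filters, thinning, a replicate block and leaving out libraries. The fits were run on simulated counts with known changes and a spread common to all genes, to check the code. That spread does not stand for the wide spread of the 8 genes among untreated libraries. Gene coordinates are from GENCODE M21 (mm10) and promoters from RefSeq (GRCm38.p6). Named genes are the 8 members, the most abundant found genes of each list (4 per T cell list, 2 of each other list, of which a selection is printed) and the 10 genes most like the summed members by Pearson's r of log2(CPM + 1). Genes named because edgeR or DESeq2 called them or because their groups did not overlap were picked after their values were seen. The members and lists were chosen with earlier results of these data known. Some listed genes are not reported here.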

Additional observations from a re-analysis of the deposited data

Results flagged for a closer look

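Untreated replicate 1 lay far above the other untreated libraries for Cd8b1 (167.5 CPM, next 34.1), Lck (213.6 CPM, next 35.6), Tcf7 (279.5 CPM, next 60.7), Ptprc (147.6 CPM, next 35.6), Bcl11b (8.38 CPM, next 1.48) and the sum of the 8 genes (1045 CPM, next 262), by Dixon's test of the gap to the nearest library over the range of the group. In the irradiated group, replicate 3 stood apart for Ptprc (14.6 CPM, next 6.31) and replicate 1 for Bcl11b (1.56 CPM, a single count, with the others at 0). The test assumes normally distributed values, for which about 1 in 20 groups would be picked out by chance. That rate need not hold for low or skewed counts, and a single count among zeros is always picked out. The 8 genes come from the same libraries, so these values are not independent of each other.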

How the results depend on the processing

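The 8 genes kept a fold change below 0 in every fit that tested them, and none was called higher in any fit. The edgeR fit called 0 of the 4 members it tested lower (11 of 8934 tested genes). DESeq2 called 5 of 7 (100 of 13153) and limma-voom 1 of 4 (24 of 8934). With replicates 1 to 4 and no block, edgeR called 1 of 4 (10 of 8843). Without untreated replicate 1 and irradiated replicate 4 together it called 2 of 4 (16 of 9039). When 1 library was left out, it called 0 to 2 of the 3 to 6 members tested. Fits without a low-count filter, chosen after the data were seen, tested all 8. They called 0 to 2 when 1 library was left out (1 to 13 of all genes) and 1 with replicates 1 to 4 (12 of 13223). With the replicate number as a block, 3 of 4 were called (22 of 8843 tested genes), and 4 of 8 without the filter (48 of 13223). Same-numbered libraries correlated at 0.0613, -0.00242, -0.118 and 0.139 in their deviations from the group means, so the numbers were not taken as pairs. Over all tested genes the 11 lower calls became 100 by DESeq2, 24 by limma-voom, 22 with the replicate block, 48 with the replicate block and no filter, 7 after thinning to the smallest library, 2 to 12 when 1 library was left out and 1 to 13 (6 without irradiated replicate 4) when this was done without the filter. The 109 higher calls became 184 by DESeq2, 50 to 114 when 1 library was left out and 53 to 114 (61 without irradiated replicate 2, 65 without untreated replicate 3) when this was done without the filter. The ratio of mean summed CPM, irradiated over untreated, was 0.0920, and it was 0.193 without untreated replicate 1, 0.183 without untreated replicate 1 and irradiated replicate 4, and 0.0786 to 0.193 over all fits that left out 1 library. The causes were not tested. Bcl11b, with 1 irradiated and 10 untreated counts, gives wide intervals at this depth.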
